A study of Mus musculus with 2 samples.

Results

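The genes described here are the 10 mouse genes for antigen presentation by MHC class II that were chosen by symbol from a list: H2-Aa, H2-Ab1 and H2-Eb1, Cd74, H2-DMa, H2-DMb1 and H2-DMb2, H2-Oa and H2-Ob, and Ciita. All 10 were found, each under 1 identifier, among the 32285 genes of the count matrices. They were followed through the leukocytes of liver tumours in 2 droplet single-cell RNA-seq libraries, made with the 10x Genomics 3′ v3 kit from sorted live CD45+ cells. The AKK library came from C57BL/6 mice given Akkermansia muciniphila, a mucin-degrading gut bacterium, by mouth at 5e9 colony-forming units, and the PBS library from C57BL/6 mice given phosphate-buffered saline instead. Both sets of mice ate an MCD diet (methionine- and choline-deficient, used to cause fatty liver) and carried luciferase-labelled RIL-175 cells, a mouse hepatocellular carcinoma line, implanted in the liver. Oral dosing with bacterium or PBS began 2 weeks ahead of the MCD diet, and implantation came after 2 weeks on that diet. Bacterial dosing stopped for a 6-day recovery from surgery and then went on to the end. The study set out to learn what the bacterium does to innate immunity in these tumours.

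MHC class II molecules carry peptides from engulfed proteins to the cell surface, where CD4 T cells read them. H2-Aa and H2-Ab1 encode the alpha and beta chains of I-A, the class II molecule that C57BL/6 mice display, and H2-Eb1 encodes the beta chain of I-E. New class II dimers are held by the invariant chain, the product of Cd74, until H2-DM (H2-DMa with H2-DMb1 or H2-DMb2) exchanges its last fragment for peptides from digested proteins, and H2-DO (H2-Oa with H2-Ob) restrains H2-DM. CIITA, the product of Ciita, is the transactivator that switches these genes on together; dendritic cells, macrophages and B cells are the classical users of the pathway, and interferon-gamma can induce Ciita in others.

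On the genome, 8 of the 10 genes lie together in the MHC on chromosome 17, between bases 34092340 and 34316674 of GRCm38. Ciita lies apart, at chr16:10480059-10528418 on the plus strand, and Cd74 on another chromosome. Within the cluster the order is H2-Oa (chr17:34092340-34095234), H2-DMa (chr17:34119541-34139101), H2-DMb2 (chr17:34143307-34151555), H2-DMb1 (chr17:34153072-34160230) and H2-Ob (chr17:34238903-34254414). H2-Ab1 (chr17:34257689-34269419), H2-Aa (chr17:34282744-34287823) and H2-Eb1 (chr17:34305867-34316674) follow, and of the 8 genes H2-Aa alone is on the minus strand. H2-DMb1 and H2-DMb2 are adjacent paralogs, so reads could have been split between them, and their separate values are uncertain, as are those of H2-Eb1 and its paralog H2-Eb2. The antisense gene Gm20513 shares 2204 bases with H2-Eb1 and the antisense gene BC051537 shares 2895 bases with H2-Oa, on the opposite strand in each case, and Ciita and H2-DMa likewise overlap Dexi and Brd2. No source used here states whether counting used strand, so reads of these pairs may not have been told apart.

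The promoters of class II genes carry an X box and, downstream of it, a Y box, where RFX and NF-Y bind and recruit CIITA. Of the 10 genes, 7 had promoter windows in RefSeq (GRCm38.p6), in 8 windows of 250 bases before to 50 after a start site; H2-Ab1, Ciita and Cd74 had none. The Y box letters TGATTGG, searched on both strands, were in windows of 6 genes, H2-Aa, H2-Eb1, H2-DMb1, H2-DMb2, H2-Oa and H2-Ob, against 7.82% of all 32851 windows. The X box letters AACNNATGA were in 4 of these genes, against 2.85% of all windows. An X box followed by a Y box 10 to 40 bases on was found in 8 of the 32851 windows (0.0244%), of which 4 were those of H2-DMb1, H2-DMb2, H2-Ob and H2-Eb1, with 17 to 20 bases between the boxes. The letters had been picked after the members' windows were read, so these shares are a description. The 4 stretches below show the boxes of surface chain and accessory chain genes in their surroundings. The fixed letters of the boxes are the same because the search required them. Capitals mark the X box and the Y box, and H2-Aa has only the Y box in these letters. They lie on GRCm38.p6 at chr17:34305756-34305822 (H2-Eb1, plus strand), chr17:34145107-34145173 (H2-DMb2, plus strand), chr17:34238796-34238862 (H2-Ob, plus strand) and chr17:34287857-34287923 (H2-Aa, minus strand), and none overlaps an exon of the annotation used here.
H2-Eb1: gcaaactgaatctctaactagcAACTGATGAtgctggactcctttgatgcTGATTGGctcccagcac
H2-DMb2: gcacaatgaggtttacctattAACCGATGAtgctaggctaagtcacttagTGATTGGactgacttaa
H2-Ob: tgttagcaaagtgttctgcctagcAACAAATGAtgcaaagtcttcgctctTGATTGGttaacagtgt
H2-Aa: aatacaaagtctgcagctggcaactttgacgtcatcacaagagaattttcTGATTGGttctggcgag

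The AKK matrix held 6610 barcodes and 74495998 unique molecular identifiers (UMIs, which count captured RNA molecules), and the PBS matrix 5088 barcodes and 64731604 UMIs. After filtering, 6172 AKK and 4636 PBS cells remained, with medians of 6375 (AKK) and 6736 (PBS) UMIs per cell. Clustering without the 10 genes gave 16 classes named from markers, each called X-like, and left 22 AKK and 157 PBS barcodes unnamed. There was 1 library per group, and the sources used here do not say whether mice were pooled, so no difference between the libraries has a replicate check. Intervals given here are exact 95% intervals that cover counting error only. Levels are in CPM, UMIs per 1e6 UMIs of that class in that library, and are not scaled by gene length. The libraries shared 8 of 11698 barcodes, and despite the CD45 sort 117 AKK and 155 PBS cells fell in a cluster scoring for the tumour/epithelial set and led by Cdh6, Cdh13 and Hmga2 with Krt8 among its 10 leading genes.

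Conventional dendritic cells had the highest level of class II pathway RNA, as a share of their own UMIs, in both libraries. The 10 genes together made up 24390 CPM of the RNA of cDC1-like cells in the AKK library and 27200 CPM in the PBS library, and 21094 CPM (AKK) and 26555 CPM (PBS) in cDC2-like cells. Type 1 conventional dendritic cells are known for cross-presentation to CD8 T cells and type 2 for presentation to CD4 T cells. Macrophage-like cells followed with 15488 CPM in the AKK library and 11019 CPM in the PBS library. B-like cells had 11574 CPM (AKK) and 11437 CPM (PBS), so macrophage-like cells stood above B-like cells in the AKK library and below them in the PBS library, with intervals that did not overlap in either. Mature DC-like cells, of which there were only 22 (AKK) and 10 (PBS), had 9950 CPM (AKK) and 9639 CPM (PBS), and pDC-like cells had 4778 CPM (AKK) and 5007 CPM (PBS).

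Monocytes and plasma cells formed a tier below these. Classical monocyte-like cells had 4284 CPM in the AKK library and 2732 CPM in the PBS library. Nonclassical monocyte-like cells had 4362 CPM from 59 AKK cells, a level whose interval overlapped that of classical monocyte-like cells, and 884 CPM from only 10 PBS cells. Plasma-like cells, the antibody-secreting stage in which Ciita is normally silenced, had 1887 CPM (AKK) and 1825 CPM (PBS). The other 7 classes had between 280 and 537 CPM in the AKK library and between 262 and 453 CPM in the PBS library. In the AKK order the intervals of neighbours overlapped from the basophil/mast-like class down through NK/ILC1-like, gamma-delta T-like and T-like to tumour/epithelial-like cells. In the PBS order they overlapped from the gamma-delta T-like class down through neutrophil-like and basophil/mast-like to myeloid precursor-like cells, and between NK/ILC1-like and T-like cells.

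**Figure D1:**
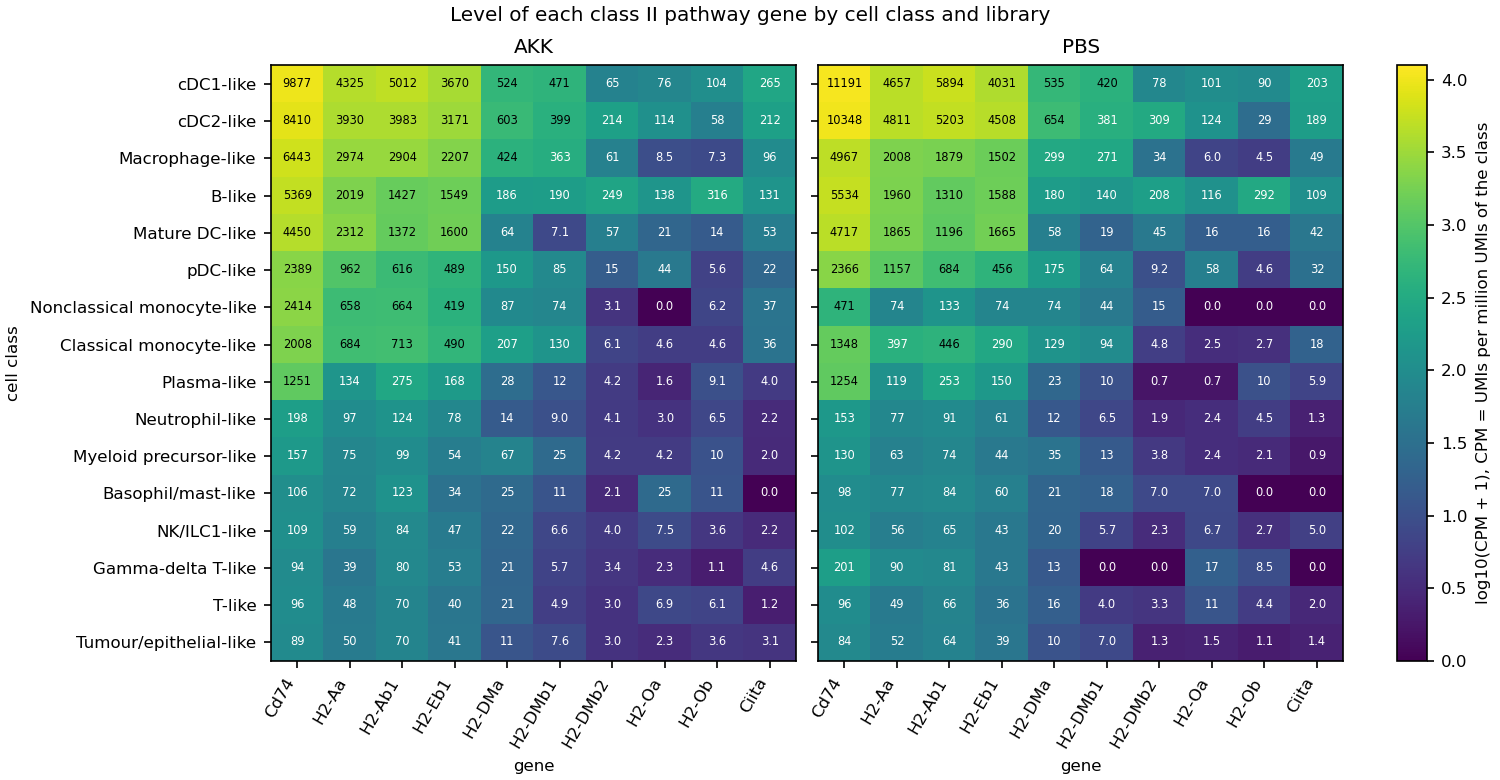
Level of each of the 10 genes (columns) in each cell class (rows, ordered by the summed AKK level) in the AKK library (left) and the PBS library (right), with CPM printed in each cell and colour on the log10(CPM + 1) scale. The cDC1-like and cDC2-like rows are brightest, and H2-Ob is at its highest in B-like cells of both libraries, at 316 CPM (AKK) and 292 CPM (PBS).

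The genes of the surface chains and the invariant chain were highest in the same dendritic classes. Cd74 reached 9877 CPM (AKK) and 11191 CPM (PBS) in cDC1-like cells and stood at 95.9 CPM (AKK) and 96.1 CPM (PBS) in T-like cells, which should lack class II in the mouse. H2-Ab1 ranged in the same classes between 5012 and 69.7 CPM (AKK) and between 5894 and 66.0 CPM (PBS). Ciita was at 265 CPM (AKK) and 203 CPM (PBS) in cDC1-like cells and at 212 CPM (AKK) and 189 CPM (PBS) in cDC2-like cells. B-like cells, at 131 CPM (AKK) and 109 CPM (PBS), had more Ciita than macrophage-like cells, at 95.8 CPM (AKK) and 48.6 CPM (PBS), in both libraries, unlike the order of the summed level in the AKK library. Classical monocyte-like cells had 35.5 CPM (AKK) and 18.4 CPM (PBS) of Ciita. In plasma-like cells Ciita was at 4.01 CPM from 22 UMIs (AKK) and 5.86 CPM from 8 UMIs (PBS), while Cd74 was still at 1251 CPM (AKK) and 1254 CPM (PBS).

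The H2-DO genes were distributed otherwise. H2-Ob was highest in B-like cells (316 CPM AKK, 292 CPM PBS) and lower in cDC1-like cells, at 104 CPM (AKK) and 89.6 CPM (PBS). In macrophage-like cells H2-Ob was at 7.29 CPM (AKK) and 4.47 CPM (PBS), close to the 6.05 CPM (AKK) and 4.40 CPM (PBS) of T-like cells. H2-Oa was highest in B-like cells of the AKK library, at 138 CPM, and in cDC2-like cells of the PBS library, at 124 CPM. As a share of all UMIs of the H2-DO and H2-DM genes, H2-DO made up 42.1% (AKK) and 43.6% (PBS) in B-like cells. The same share was 14.6% (AKK) and 15.6% (PBS) in cDC1-like cells, 1.83% (AKK) and 1.71% (PBS) in macrophage-like cells and 2.63% (AKK) and 2.25% (PBS) in classical monocyte-like cells. In pDC-like cells most H2-DO UMIs came from H2-Oa, 88.7% of 62 (AKK) and 92.7% of 41 (PBS), against 30.5% (AKK) and 28.4% (PBS) in B-like cells. These are shares of UMIs, not of protein, and are not corrected for how well the 3′ end of each gene is captured.

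Classes differed in which H2-DM beta chain gene gave the UMIs. H2-DMb2 made up 56.7% (AKK) and 59.7% (PBS) of the UMIs of both H2-DMb genes in B-like cells and 34.9% (AKK) and 44.8% (PBS) in cDC2-like cells. It made up 12.1% (AKK) and 15.6% (PBS) in cDC1-like, 14.4% (AKK) and 11.1% (PBS) in macrophage-like and 4.44% (AKK) and 4.85% (PBS) in classical monocyte-like cells. The AKK and PBS intervals of this share left each other out in cDC2-like cells, 32.9 to 37.0% (AKK) and 42.2 to 47.5% (PBS), and likewise in macrophage-like cells, 13.2 to 15.7% (AKK) and 10.1 to 12.2% (PBS), where the AKK share was the higher. Cd74 made up 66.3% (AKK) and 68.7% (PBS) of the UMIs of the 10 genes in plasma-like cells, the highest share of any class, against 39.9% (AKK) and 39.0% (PBS) in cDC2-like cells and 46.4% (AKK) and 48.4% (PBS) in B-like cells.

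**Figure D2:**
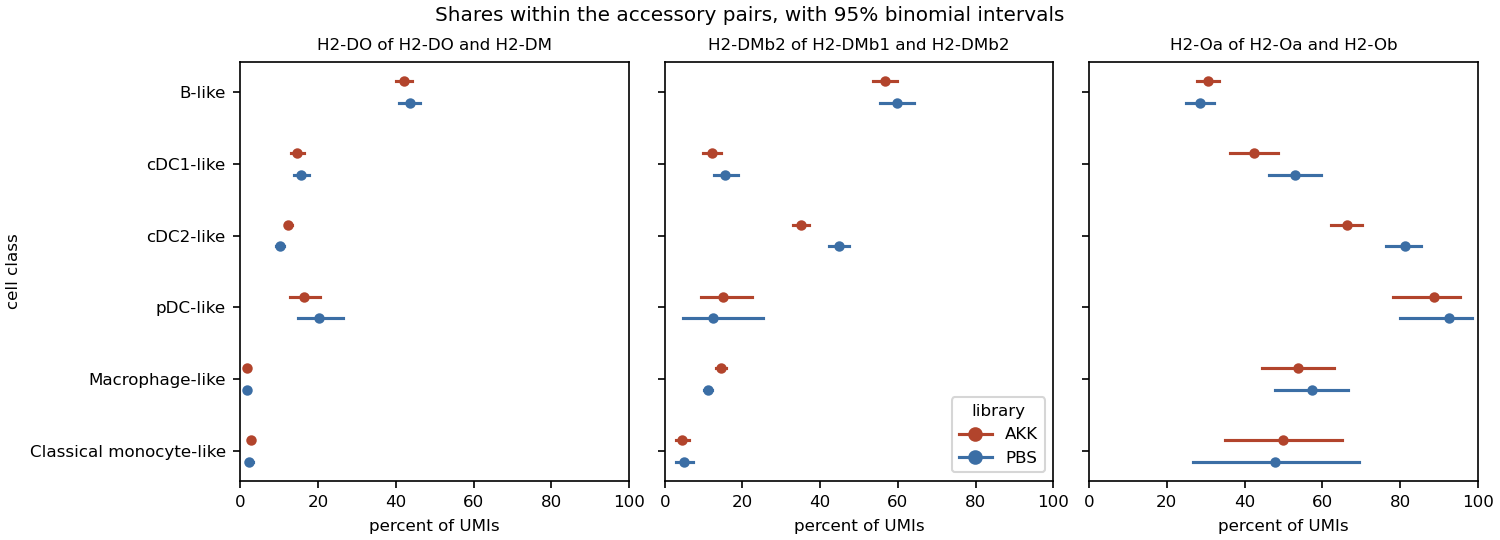
Share of H2-DO among H2-DO and H2-DM UMIs (left), of H2-DMb2 among both H2-DMb genes (middle) and of H2-Oa among both H2-DO genes (right), in percent, for 6 classes; points are the AKK library (red) and the PBS library (blue) and lines are exact binomial 95% intervals. B-like cells have the largest H2-DO share, 42.1% (AKK) and 43.6% (PBS), and macrophage-like and classical monocyte-like cells have under 3%.

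Cells of a class differed widely in how much of their RNA these genes made up. In macrophage-like cells the median was 1.24% of a cell's UMIs in the AKK library, with a 10th percentile of 0.114% and a 90th of 2.75%, and in the PBS library the median was 0.794%, with 0.0741% and 2.32%. B-like cells were far more even, between 0.741% and 1.55% (AKK) and between 0.712% and 1.59% (PBS) at the same percentiles. In cDC2-like cells the 10th percentile, the median and the 90th percentile were 0.433%, 2.16% and 3.20% in the AKK library and 0.974%, 2.63% and 3.61% in the PBS library. Classical monocyte-like cells were skewed: the median was 0.126% (AKK) and 0.0669% (PBS), and the 90th percentile 1.41% (AKK) and 0.905% (PBS).

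**Figure D3:**
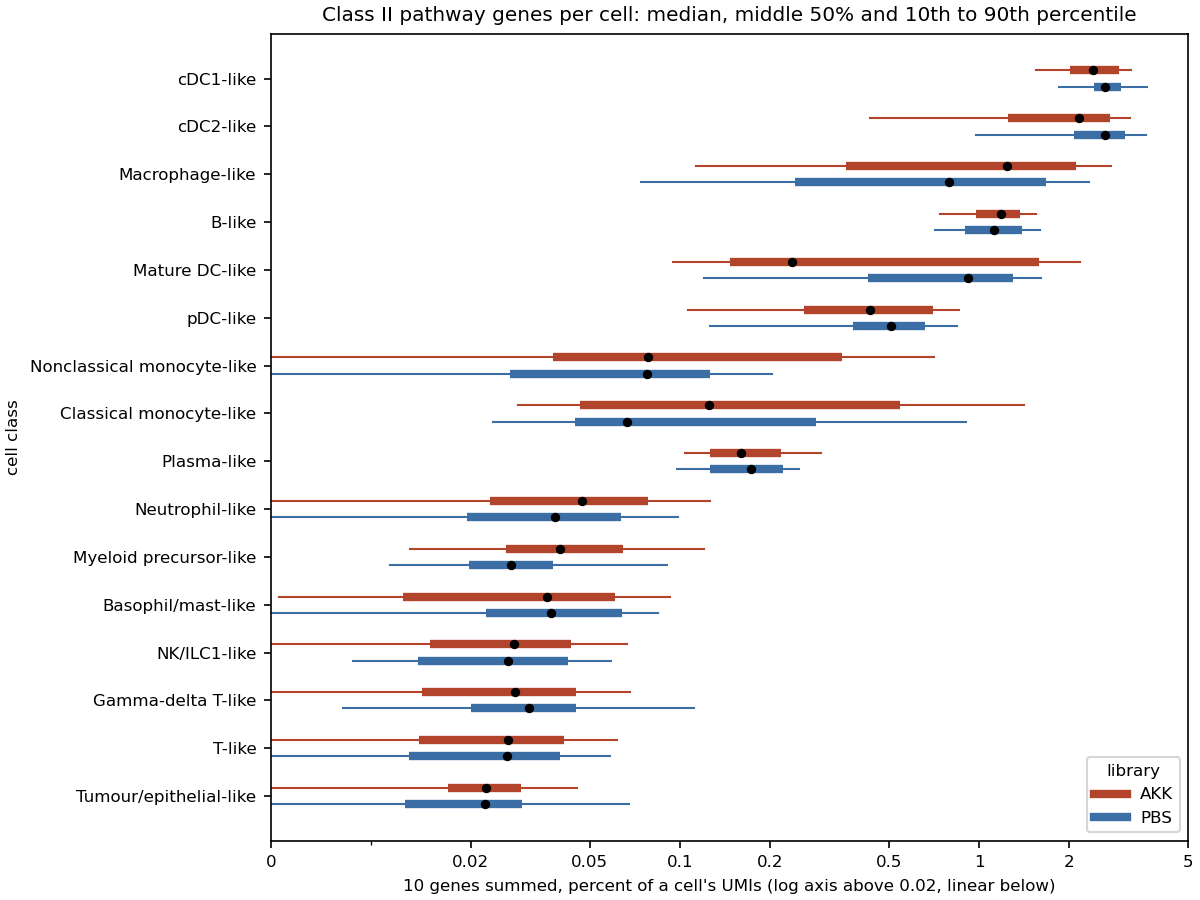
Percent of each cell's UMIs that came from the 10 genes, by class, with AKK above PBS; dots are medians over cells, thick bars the middle 50% and thin lines the 10th to 90th percentile, on an axis that is logarithmic above 0.02% and linear below. Macrophage-like and classical monocyte-like cells spread over more than 1 order of magnitude, and B-like and cDC1-like cells over much less.

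Between the libraries, the summed level of the 10 genes was compared in the 12 classes with at least 30 cells in each. The interval of the AKK over PBS ratio lay above 1 in 6 classes (macrophage-like, classical monocyte-like, neutrophil-like, myeloid precursor-like, NK/ILC1-like and tumour/epithelial-like) and below 1 in 3, all of them dendritic (cDC1-like, cDC2-like and pDC-like). In B-like, plasma-like and T-like cells it held 1. The level was only 344 CPM (AKK) and 309 CPM (PBS) in NK/ILC1-like cells. It was 280 CPM (AKK) and 262 CPM (PBS) in tumour/epithelial-like cells. In CPM both classes were near the 297 CPM (AKK) and 288 CPM (PBS) of T-like cells, and their ratios fell below 1 with doublets kept. Per cell, NK/ILC1-like cells held 3.26 (AKK) and 3.28 (PBS) UMIs of the 10 genes, and T-like cells 2.86 (AKK) and 2.91 (PBS). Tumour/epithelial-like cells, which were far deeper, held 21.5 (AKK) and 18.9 (PBS) per cell.

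In macrophage-like cells (491 AKK and 599 PBS) all 10 genes were higher in the AKK library. The summed ratio was 1.41 (1.39 to 1.42). H2-Aa was at 2974 CPM (AKK) and 2008 CPM (PBS), a ratio of 1.48. H2-Ab1 was at 2904 CPM (AKK) and 1879 CPM (PBS), a ratio of 1.55 (1.52 to 1.58), and H2-Eb1 was at 2207 CPM (AKK) and 1502 CPM (PBS), a ratio of 1.47. Cd74 had the smallest ratio, 1.30 (1.28 to 1.31), from 6443 CPM (AKK) and 4967 CPM (PBS).

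The peptide-exchange genes were higher in these cells by similar amounts, with ratios of 1.42 for H2-DMa and 1.34 for H2-DMb1, and H2-DMb2 was at 61.3 CPM (AKK) and 34.0 CPM (PBS), a ratio of 1.81 (1.57 to 2.08). Ciita had the largest ratio of the 10, 1.97 (1.76 to 2.21), from 709 AKK and 532 PBS UMIs. H2-Ob, at 54 (AKK) and 49 (PBS) UMIs, had a ratio of 1.63 (1.09 to 2.45), and H2-Oa, at 63 (AKK) and 66 (PBS) UMIs, had 1.41 with an interval that held 1 (0.984 to 2.03); both were near their T-like level. Together 9 of the 10 intervals lay above 1, where 29.2% of the 12963 genes measured in these cells had such an interval, and 4 of the 10 ratios were at least 1.5, against 10.8% of all genes. All 10 ratios were above 1, as were 62.4% of all ratios, and the median log2 ratio was 0.53 over the 10 genes and 0.08 over all genes measured. Scaling by the median of gene ratios, which shifts log2 ratios by 0.14 here, by 0.13 in classical monocyte-like and by 0.12 in myeloid precursor-like cells, left the summed log2 ratio at 0.35 in place of 0.49.

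Thinned to 3325 UMIs per cell, 20.7% of 429 AKK cells (17 to 24.9%) and 12.9% of 552 PBS cells (10.2 to 15.9%) of the macrophage-like class held a Ciita UMI. T-like cells at the same depth gave 0.371% (AKK) and 0.483% (PBS), taken as the background of free RNA for this gene. Unthinned, the macrophage-like shares were 43.0% (AKK) and 34.6% (PBS), at median depths of 12941 (AKK) and 16512 (PBS) UMIs, where T-like cells had medians of 8884.5 (AKK) and 9477.5 (PBS) UMIs. In classical monocyte-like cells thinned to 4131 UMIs, 12.0% of 342 AKK cells (8.74 to 15.9%) and 7.96% of 289 PBS cells (5.11 to 11.7%) held a Ciita UMI, against 0.255% (AKK) and 0.754% (PBS) of T-like cells; unthinned the shares were 20.2% (AKK) and 15.6% (PBS), at median depths of 12704.5 (AKK) and 12206 (PBS) UMIs.

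Finer clusters differed in the size of the macrophage difference. Clustered at resolution 2.0, the macrophage-like cells fell into 12 clusters with at least 10 cells in each library, which held 406 AKK and 515 PBS cells. The summed level was higher in the AKK library in 10 of the 12, each with an interval above 1 and with ratios between 1.11 and 1.62, and the other 2 ratios were 0.992 and 0.968. Of the 12, 3 had no name at that resolution, those with ratios of 1.62, 1.55 and 0.968. Their 10 leading genes held more markers of another class than macrophage markers, though the macrophage set scored highest in each. Among the 9 named macrophage-like, 8 intervals lay above 1, with ratios between 1.11 and 1.46. The libraries shared the clusters unequally, and 3 of the 12 reached the ratio of the whole class. The cluster with 72 AKK and 29 PBS cells had 23086 CPM (AKK) and 20621 CPM (PBS), a ratio of 1.12, and the one with 57 AKK and 23 PBS cells had a ratio of 1.13. The largest of these clusters, with 68 AKK and 179 PBS cells and led by C1qa, Mmp13 and Mmp12, had 15142 CPM (AKK) and 11086 CPM (PBS). Beside this, the summed level of the 8 macrophage markers was 6357 CPM (AKK) and 9417 CPM (PBS), and that of 6 cDC2 markers was 426 CPM (AKK) and 223 CPM (PBS), with all 6 detected in each. The part of these markers in the class II result was not tested.

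In classical monocyte-like cells (386 AKK and 315 PBS), the blood-derived precursors of tumour macrophages, all 10 genes again had ratios above 1, and the summed ratio was 1.57 (1.53 to 1.60). H2-Aa stood at 684 CPM (AKK) and 397 CPM (PBS), a ratio of 1.72 (1.63 to 1.83). The ratios of H2-Eb1, H2-DMa, H2-Ab1 and Cd74 were 1.69, 1.61, 1.60 and 1.49, and that of H2-DMb1 was 1.39. Ciita had 176 UMIs (AKK) and 81 UMIs (PBS), a ratio of 1.93 (1.48 to 2.54). H2-DMb2, H2-Oa and H2-Ob, with at most 30 UMIs in either library, had ratios of 1.27, 1.86 and 1.70 whose intervals held 1. In all, 7 of the 10 intervals lay above 1, against 26.7% of 10795 genes measured, 62.4% of which had a ratio above 1, and the median log2 ratio was 0.62 over the 10 genes against 0.10 over all genes.

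The monocyte-like clusters were shared unequally between the libraries. Cluster 1 held 217 AKK and 19 PBS cells, cluster 2 held 33 AKK and 188 PBS cells, cluster 3 held 129 AKK and 32 PBS cells, and cluster 4 held 7 AKK and 76 PBS cells. Within each of the first 3 the AKK level was the higher: 1363 CPM (AKK) and 1114 CPM (PBS) in cluster 1, 5200 CPM (AKK) and 3987 CPM (PBS) in cluster 2, and 9819 CPM (AKK) and 6425 CPM (PBS) in cluster 3, none with overlapping intervals. Cluster 4, whose leading genes included Saa3, Mmp8 and S100a8, was at 426 CPM in the PBS library and had too few AKK cells for a level. The 8 neutrophil markers summed to 2471 CPM (AKK) and 7608 CPM (PBS) over the class, all 8 detected in each, and their part in the result was not tested. With each library clustered alone, where the class held 324 AKK and 336 PBS cells, the summed log2 ratio of 0.65 came to 0.09, and with the 10 genes among the clustering genes to 0.27.

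**Figure D4:**
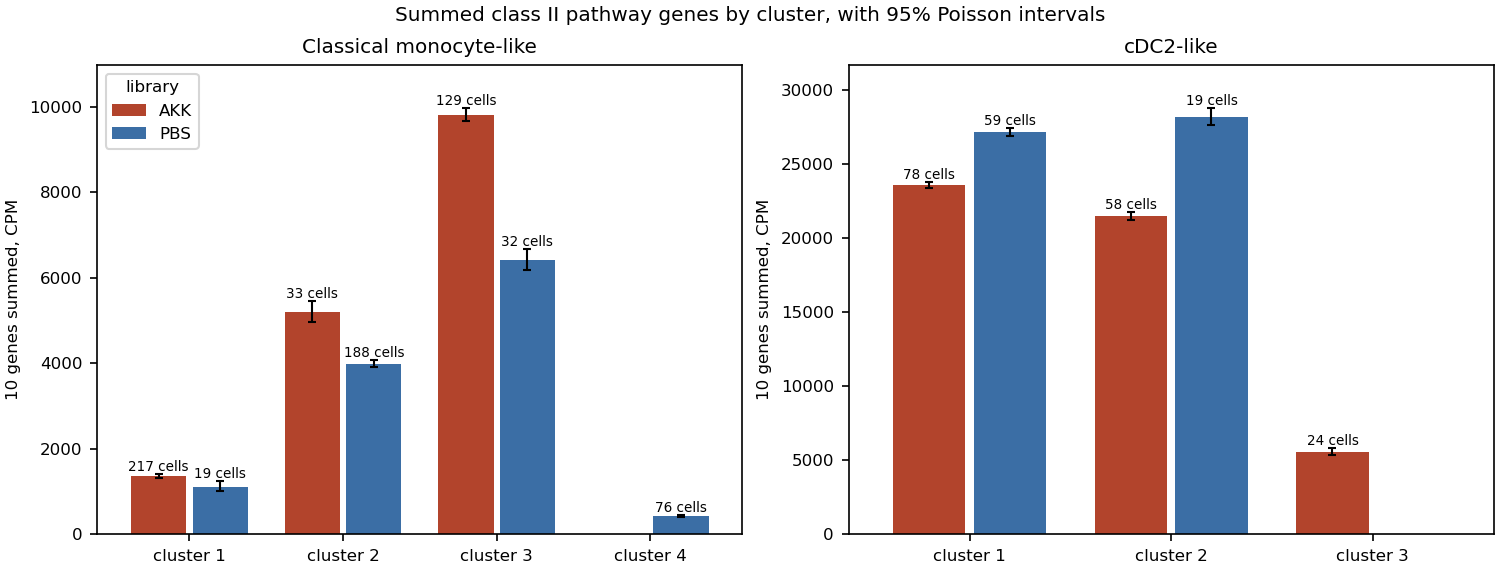
Summed level of the 10 genes in CPM (bars from 0, with exact Poisson 95% intervals and cell numbers above) in the clusters of classical monocyte-like cells (left) and cDC2-like cells (right), AKK in red and PBS in blue, where a cluster has at least 10 cells in that library. In monocyte-like clusters 1 to 3 the AKK bar is the taller, and in cDC2-like clusters 1 and 2 the PBS bar is.

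Conventional dendritic cells went the other way for the abundant chains. In cDC2-like cells (160 AKK and 82 PBS) the summed ratio was 0.794 (0.785 to 0.803). H2-Eb1 was at 3171 CPM (AKK) and 4508 CPM (PBS), a ratio of 0.703 (0.684 to 0.723). H2-Ab1 was at 3983 CPM (AKK) and 5203 CPM (PBS), a ratio of 0.766, and H2-Aa and Cd74 had ratios of 0.817 and 0.813. H2-DMb2 was at 214 CPM (AKK) and 309 CPM (PBS), a ratio of 0.693 (0.622 to 0.772), and H2-DMa had 0.922 (0.860 to 0.989).

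Not all of the pathway was lower in cDC2-like cells. Ciita stood at 212 CPM (AKK) and 189 CPM (PBS), a ratio of 1.12 (0.988 to 1.27), and H2-DMb1 at a ratio of 1.05 and H2-Oa at 0.918 had intervals that held 1. H2-Ob was higher, at 57.8 CPM from 195 UMIs (AKK) and 28.6 CPM from 58 UMIs (PBS), a ratio of 2.03 (1.504 to 2.765). Counted together, 6 of the 10 intervals lay below 1, against 10.5% of 10284 genes, and 1 lay above 1, against 20.4%. The share of H2-Oa among the H2-DO UMIs was 66.3% (AKK) and 81.3% (PBS) in these cells.

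By cluster, the lower cDC2 level was seen in cluster 1, led by Plet1 and Mgl2, with 23576 CPM (AKK, 78 cells) and 27175 CPM (PBS, 59 cells). It was also seen in cluster 2, led by Cd209a, with 21498 CPM (AKK, 58 cells) and 28204 CPM (PBS, 19 cells). Cluster 3, with none of the cDC2 markers among its 10 leading genes, held 24 AKK cells at 5580 CPM and only 4 PBS cells. With each cell's class taken from its own marker score, which called 295 AKK and 148 PBS cells cDC2-like, the log2 ratio of -0.33 came to -0.01. In cDC2-like cells the 6 classical monocyte markers summed to 499.6 CPM (AKK) and 204 CPM (PBS) and the 7 pDC markers to 723 CPM (AKK) and 401 CPM (PBS). Other sets were lower in the AKK library. The 8 neutrophil markers summed to 3147 CPM (AKK) and 4689 CPM (PBS) and the 6 cDC1 markers to 848 CPM (AKK) and 1047 CPM (PBS). The 6 cDC2 markers themselves summed to 1344 CPM (AKK) and 1357 CPM (PBS). All of these markers were detected in each library, and their part in the result was not tested.

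In cDC1-like cells (55 AKK and 42 PBS) the summed ratio was 0.897 (0.883 to 0.910). The ratios of H2-Ab1, Cd74, H2-Eb1, H2-Aa and H2-Oa were 0.850, 0.883, 0.910, 0.929 and 0.755, each with an interval below 1, and this share of 5 in 10 stood against 10.6% of 8493 genes. H2-DMa at 0.980, H2-DMb2 at 0.830, H2-DMb1 at 1.12 and H2-Ob at 1.16 had intervals that held 1. Ciita was higher, at 265 CPM (AKK) and 203 CPM (PBS), a ratio of 1.31 (1.11 to 1.55), the only interval of the 10 above 1, against 15.2% of all genes. In cDC1-like cells the 6 classical monocyte markers summed to 258 CPM (AKK) and 138 CPM (PBS), all 6 detected in each, and the 7 NK/ILC1 markers to 138 CPM (AKK) and 23.4 CPM (PBS), with Eomes and Prf1 at 0 in the PBS library. The 7 T markers summed to 88.3 CPM (AKK) and 38.5 CPM (PBS) and the 7 mature dendritic cell markers to 32.0 CPM (AKK) and 126 CPM (PBS), with Fscn1, Nudt17 and Il4i1 at 0 in both, and the part of these markers in the result was not tested. With doublets kept, the summed log2 ratio of -0.16 in cDC1-like cells came to -0.09. In pDC-like cells (81 AKK and 42 PBS), known for making type I interferon, the summed ratio of 0.954 had an interval close to 1 (0.914 to 0.996), and H2-Aa, at 962 CPM (AKK) and 1157 CPM (PBS), alone of the 9 measured genes had an interval below 1, at a ratio of 0.831, against 8.92% of 7702 genes. H2-Ab1, H2-Eb1, Cd74, H2-DMa, H2-DMb1, H2-DMb2, H2-Oa and Ciita had ratios of 0.900, 1.07, 1.01, 0.858, 1.32, 1.64, 0.749 and 0.690 there, and H2-Ob had under 20 UMIs and was not measured.

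**Figure D5:**
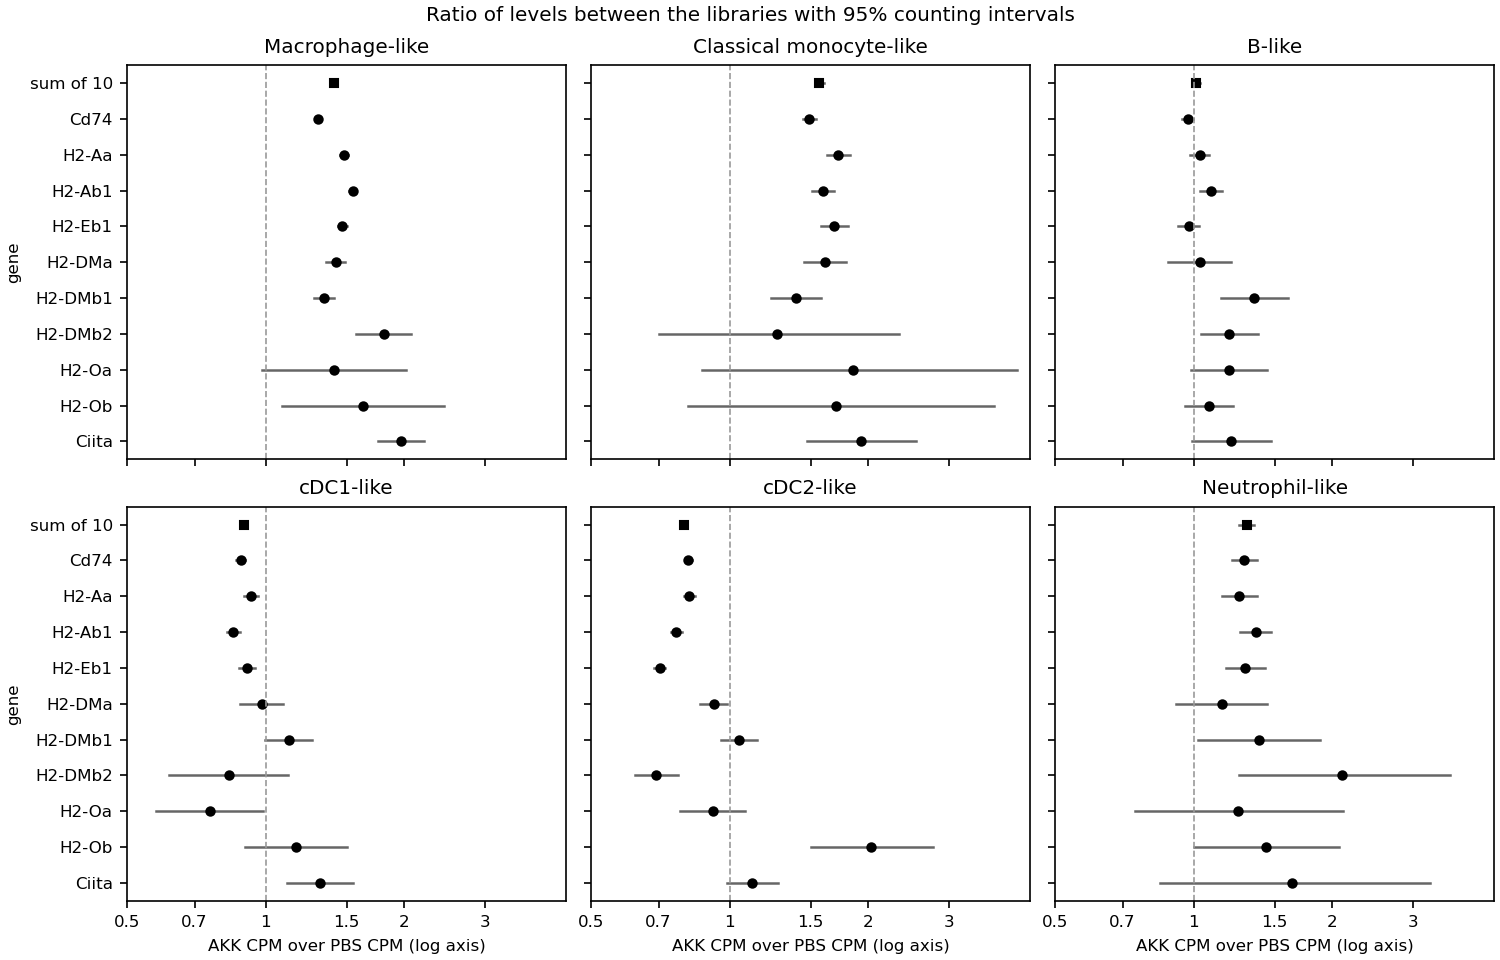
Ratio of AKK CPM to PBS CPM (log axis) for the sum of the 10 genes (square) and each gene (circles) in 6 classes, with exact 95% counting intervals as lines and a dashed line at 1. In macrophage-like and classical monocyte-like cells every point lies right of 1, and in cDC1-like and cDC2-like cells the sum, Cd74, H2-Aa, H2-Ab1 and H2-Eb1 lie left of it.

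B-like cells, which use class II to obtain help from T cells, had nearly the same summed level in both libraries, with a ratio of 1.01 (0.993 to 1.03) from 287 AKK and 163 PBS cells. Of the 10 genes, H2-DMb1 at 1.35 (1.14 to 1.61), H2-DMb2 at 1.19 and H2-Ab1 at 1.09 had intervals above 1, which 11.7% of 9295 genes had, and Cd74 at 0.970 had one just below 1, against 7.92%. H2-Aa, H2-Eb1, H2-DMa, H2-Oa, H2-Ob and Ciita had ratios of 1.03, 0.976, 1.03, 1.19, 1.08 and 1.21 with intervals that held 1. In plasma-like cells the summed ratio was 1.03 (0.990 to 1.08) and 0 of 9 measured genes had an interval that left out 1, where 9.63% of 10348 genes had one above it and 10.3% one below. The plasma-like log2 ratio of 0.05 came to 0.19 with doublets kept and to -0.07 with each cell's own marker score.

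Neutrophil-like cells, the most numerous class (2563 AKK and 2085 PBS cells), had a summed ratio of 1.30 (1.26 to 1.35), and 7 of 10 intervals lay above 1 where 21% of 12732 genes did. Their summed level was 537 CPM (AKK) and 412 CPM (PBS), above the 297 CPM (AKK) and 288 CPM (PBS) of T-like cells, which should lack these genes. Per cell, and at less than the depth of T-like cells, they held 2.47 (AKK) and 2.35 (PBS) UMIs of the 10 genes, against 2.86 (AKK) and 2.91 (PBS) in T-like cells. Thinned to 2324 UMIs, 67.1% (AKK) and 61.5% (PBS) of neutrophil-like cells had a UMI of any of the 10 genes, and 50.5% (AKK) and 46.7% (PBS) of T-like cells, and without thinning the neutrophil-like shares were 85.3% (AKK) and 85.6% (PBS) and the T-like shares 88.6% (AKK) and 87.1% (PBS). Median depths were 4164 (AKK) and 4936 (PBS) UMIs in neutrophil-like cells. H2-DMb2 had the largest ratio, 2.10 (1.25 to 3.62), from 48 AKK and 23 PBS UMIs, and the ratios of H2-Ab1, H2-Aa, H2-Eb1, Cd74, H2-DMb1, H2-Ob, H2-DMa and H2-Oa were 1.36, 1.25, 1.29, 1.29, 1.39, 1.44, 1.15 and 1.25. Ciita gave 26 UMIs in all AKK and 16 UMIs in all PBS neutrophil-like cells, a ratio of 1.64 whose interval held 1. Cd74 made up 36.9% (AKK) and 37.3% (PBS) of the UMIs of the 10 genes in these cells, between the 32.3% (AKK) and 33.4% (PBS) of T-like cells and the 39.9% (AKK) and 39.0% (PBS) of cDC2-like cells. In neutrophil-like cells the 6 plasma cell markers summed to 175.5 CPM (AKK) and 53.5 CPM (PBS), the 8 B cell markers to 59.4 CPM (AKK) and 31.7 CPM (PBS), and the 7 T markers to 58.1 CPM (AKK) and 27.7 CPM (PBS). The 6 classical monocyte markers summed to 773 CPM (AKK) and 1223 CPM (PBS) there. All of these markers were detected in each library, and their part in the result was not tested.

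In myeloid precursor-like cells (147 AKK and 137 PBS) 7 of 9 measured intervals lay above 1, against 26.4% of 11886 genes, and the largest ratios were those of H2-Ob at 4.82 (2.55 to 9.90), from 54 AKK and 12 PBS UMIs, H2-DMa at 1.89 (1.59 to 2.26) and H2-DMb1 at 1.89. H2-DMa stood at 66.8 CPM (AKK) and 35.3 CPM (PBS) there, against 21.4 CPM (AKK) and 16.5 CPM (PBS) in T-like cells. H2-Ob stood at only 9.96 CPM (AKK) and 2.07 CPM (PBS), against 6.05 CPM (AKK) and 4.40 CPM (PBS) in T-like cells. In CPM its PBS level was thus below the T-like one. Per cell, H2-Ob gave 0.367 (AKK) and 0.0876 (PBS) UMIs there, against 0.0584 (AKK) and 0.0444 (PBS) in T-like cells. The 10 genes together gave 18.3 (AKK) and 15.6 (PBS) UMIs per cell, against 2.86 (AKK) and 2.91 (PBS) in T-like cells. Median depths were 8884.5 (AKK) and 9477.5 (PBS) UMIs in T-like cells and 33538 (AKK) and 37238 (PBS) in myeloid precursor-like cells. H2-Ab1, H2-Eb1, Cd74, H2-Aa, H2-Oa and H2-DMb2 had ratios of 1.34, 1.23, 1.21, 1.18, 1.76 and 1.12 in these cells, and Ciita was not measured. The 8 neutrophil markers summed to 28633 CPM (AKK) and 66793 CPM (PBS) in them, all 8 detected in each, and their part in the result was not tested. The summed log2 ratio in these cells, 0.43, came to 0.08 with each cell weighted alike, 0.10 with doublets kept and 0.65 with each cell's own marker score. In tumour/epithelial-like cells, thinned to 820 UMIs, 22.6% (AKK) and 17.3% (PBS) had a UMI of any of the 10 genes, against 22.0% (AKK) and 24.0% (PBS) of T-like cells. Without thinning, and at median depths of 79176 (AKK) and 73131 (PBS) UMIs, the tumour/epithelial-like shares were 88.0% (AKK) and 78.1% (PBS). The summed ratios of NK/ILC1-like and T-like cells were 1.12 (1.03 to 1.21) and 1.03 (0.964 to 1.103), and that of tumour/epithelial-like cells was 1.07 (1.01 to 1.13). With doublets kept, the log2 ratio of 0.16 in NK/ILC1-like cells turned to -0.025 and that of 0.10 in tumour/epithelial-like cells to -0.71, and that of 0.04 in T-like cells came to 0.51.

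Of 26 other genes of the pathway, 25 were measured in classical monocyte-like cells, of which 13 had intervals above 1, against 26.7% of all genes, and 4 below, against 13.9%. Irf1, a transcription factor that carries the interferon-gamma signal to the Ciita promoter, was higher in the AKK library, at 297 CPM (AKK) and 121 CPM (PBS), a ratio of 2.47 (2.23 to 2.73). Nfya, a subunit of NF-Y, had a ratio of 2.46, the protease gene Lgmn 1.62 and March1, whose product sends surface class II to degradation, 1.80. Jak2, a kinase of the interferon-gamma receptor, was lower at 0.522 (0.497 to 0.548).

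In macrophage-like cells all 26 were measured, and 9 had intervals above 1, against 29.2% of all genes, and 8 below, against 14.6%. The ratio of H2-Eb2, a further class II beta gene, was 1.99 (1.48 to 2.69). The protease gene Ctsb was at 1173 CPM (AKK) and 1771 CPM (PBS), a ratio of 0.663, and the co-stimulatory receptor gene Cd40 at 32.6 CPM (AKK) and 50.4 CPM (PBS), a ratio of 0.646. In cDC1-like cells 7 of 24 intervals lay above 1, against 15.2% of all genes, and 3 below, against 10.6%, with Irf1 at 2.36, Nfya at 2.15 and H2-Eb2 at 4.98 from 18 AKK and 3 PBS UMIs (1.45 to 26.4). In cDC2-like cells, where 8 of 26 lay above 1, against 20.4% of all genes, and 8 below, against 10.5%, Nfya was at 1.61, while Ctsl was at 0.662 and H2-Eb2 at 0.536.

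In B-like cells 10 of 25 intervals lay above 1, against 11.7% of all genes, and 3 below, against 7.92%, with Cd80, a co-stimulatory ligand, at 1.78 (1.38 to 2.33) and Ctsl at 0.549. In neutrophil-like cells, where 9 of 26 lay above 1, against 21% of all genes, and 5 below, against 12.8%, Irf1 was at 1.84 (1.75 to 1.93), Rfx5, an RFX subunit gene, at 1.74 (1.003 to 3.088) and Ctsl at 0.588.

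Across 27 profiles, one for each class and library with at least 30 cells, the 8 other genes most like the summed level were Gm20513, Fgd2, Plekho1, Pkib, Dnase1l3, Prcp, Amz1 and Tbc1d9, among 10769 genes compared. Pearson's r of log2(CPM + 5) was 0.95 for Gm20513 and between 0.87 and 0.89 for the other 7, given as a description since the profiles share 2 libraries. Gm20513 overlaps H2-Eb1 on the opposite strand, and reads of the pair may not have been told apart. Each of the 10 genes is itself part of the sum it was compared with, and the abundant Cd74 is a large part of it. By the same measure Cd74 had 0.99 and Ciita 0.96, while H2-Oa had 0.69 and H2-Ob 0.66, the lowest of the 10. These values of the members are therefore only a description.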

How the data were processed

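Filtered gene-by-barcode matrices of raw UMI counts were deposited by the authors, 1 per library. They were written by Cell Ranger 7.1.0 per the file headers, while the submitters' processing notes name Cell Ranger 5.0.1 and mm10; no source used here states whether intronic reads were counted. Barcodes with under 200 genes or over 15% mitochondrial UMIs were removed. Scrublet's own threshold marked 1.80% (AKK) and 0.0590% (PBS) of barcodes and was not used; the highest-scoring 0.8% per 1000 barcodes were removed instead. Cells of both libraries were clustered together without the 10 genes and H2-Eb2 (2000 variable genes, 30 components, 15 neighbours, Leiden resolution 1) and named from marker sets. The naming settings and the sub-clustering of monocytes were chosen after clusters were seen, and the members and lists with earlier results of these data known. UMIs were summed per class. Ratios needed 30 cells in each library and 20 UMIs over both, and carry exact conditional binomial intervals; levels needed 10 cells and carry exact Poisson intervals, and shares exact Clopper-Pearson intervals, all at 95% and for counting error only. With 1 library per group no test was made. The ratio of every measured member was given in the classes compared, except in plasma-like, NK/ILC1-like, T-like and tumour/epithelial-like cells. Ratios of single members were left out for those classes. Pathway genes were described in classical monocyte-like, macrophage-like, cDC1-like, cDC2-like, B-like and neutrophil-like cells only. They were named where the ratio was at least 1.5 or at most 1/1.5 with an interval that left out 1, at most 6 per class. Each of the other classes compared also had pathway genes that met this rule, and these were left out. Only the ratio and its interval were tested on simulated data, for macrophage-like and classical monocyte-like totals. That simulation held counting noise alone, the noise the interval assumes, and did not cover clustering, naming or thinning. Gene positions are from the GRCm38 annotation and promoters from RefSeq; motif letters were picked after the windows were read. Python 3.11.15, scanpy 1.11.5, scipy 1.17.1 and leidenalg 0.10.2 were used. One gene of the pathway list is counted in its totals but is not reported by name here.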

Additional observations from a re-analysis of the deposited data

Results flagged for a closer look

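The summed class II ratio, AKK over PBS, lay below 1 in 3 dendritic classes, where it lay above 1 in macrophage-like and classical monocyte-like cells. It was 0.897 in cDC1-like cells, 0.794 in cDC2-like cells and 0.954 in pDC-like cells, against 1.41 in macrophage-like and 1.57 in classical monocyte-like cells. These were singled out because the classes differed in direction under the same contrast; with 1 library per group the difference between classes was not tested.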

How the results depend on the processing

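Values are AKK over PBS log2 ratios of the summed level. In classical monocyte-like cells 0.65 became 0.52 with median-of-ratios scaling, 0.61 with each cell weighted alike, 0.51 with doublets kept, 0.84 with at least 500 genes per barcode, 0.52 at resolution 2.0, 0.27 with the members among the clustering genes, 0.46 with classes from each cell's own marker score, 0.088 with each library clustered alone and 0.68 with free RNA subtracted. In macrophage-like cells 0.49 became 0.35, 0.38, 0.46, 0.47 and 0.48 under the first 5 of these, in that order, and 0.40 with the own marker score. In neutrophil-like cells 0.38 became 0.32 with median-of-ratios scaling and 0.29 with the own marker score, and subtracting free RNA left no value. In cDC2-like cells -0.33 became -0.41 with median-of-ratios scaling and -0.0072 with the own marker score. In B-like cells 0.02 became -0.036 with doublets kept. The cause of these moves was not tested beyond the choice itself. Among values whose main interval left out 0, signs turned with doublets kept in NK/ILC1-like cells (-0.025) and tumour/epithelial-like cells (-0.71). They also turned without thinning for the share of cells with a class II UMI, AKK minus PBS. This was so in myeloid precursor-like (-2.32 percentage points) and neutrophil-like cells (-0.36 percentage points). Where the main interval held 0, signs turned as well. The NK/ILC1-like share went from 2.58 to -3.31 percentage points without thinning, and the B-like log2 ratio to -0.0076 with median-of-ratios scaling. Among the other classes, myeloid precursor-like cells went to 0.31 with median-of-ratios scaling, 0.08 with each cell weighted alike, 0.10 with doublets kept and 0.65 with the own marker score, where the main value was 0.43. In cDC1-like cells -0.16 became -0.18 with median-of-ratios scaling and at resolution 2.0, -0.13 with each cell weighted alike and -0.09 with doublets kept. In T-like cells 0.04 became 0.51 and in plasma-like cells 0.05 became 0.19 with doublets kept, and with the own marker score plasma-like cells came to -0.07 and NK/ILC1-like cells to 0.03. In tumour/epithelial-like cells 0.10 became 0.20 with each cell weighted alike. The median log2 ratio over the members in neutrophil-like cells, 0.30, became 0.39 with a pseudocount of 1 CPM. For the first 5 classes 24 further values, and for the others 47, stayed within the counting interval of the main value. The finer macrophage-like clusters were looked at after the data were seen. Without a second library per group, mouse, library and treatment cannot be told apart, and classes under 30 cells in a library have no ratio. No paired analysis was possible because each group has 1 library and the labels give no replicate numbers to pair, and no test was made.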

Other observations

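Barcodes that fitted no class, 22 in the AKK library and 157 in the PBS library, had median depths of 632.5 (AKK) and 682 (PBS) UMIs. The 10 genes made up 1850 CPM of their RNA from 35 UMIs (AKK) and 1761 CPM from 212 UMIs (PBS).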
